A study of Danio rerio with 6 samples.

Results

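The nuclear genes for the 5 complexes of the mitochondrial respiratory chain were compared between zebrafish embryos kept in leflunomide and embryos kept in its solvent, DMSO. Members were all probe sets of the array whose platform gene symbol begins with nduf followed by a, b, c, s or v, with sdh followed by a, b, c or d, with uqcr, with cyc1, with cox followed by a digit from 4 to 8, or with atp5. Of 15617 probe sets, 95 matched. A pair annotated to several genes was left out, which left 93 members of 86 genes, out of 8793 genes that a probe set names alone. They comprised 44 probe sets of complex I, 7 of complex II, 9 of complex III, 14 of complex IV and 19 of complex V. The symbols admit 10 probe sets of assembly factors and 2 of inhibitory factors as well as 81 of subunits. RefSeq (assembly GRCz12tu) lists 109 protein-coding genes with such symbols; the 23 without a member probe set, among them cox4i1, cox6a2, cox7a1 and cox8b, were not analysed here.

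Embryos were of the Tu strain. In the leflunomide group (3 arrays) they were kept in the drug at 6.5 uM, and in the DMSO group (3 arrays) in DMSO, in both groups starting at 50% epiboly, during gastrulation, and ending 24 hours after fertilization. Total RNA was measured on Affymetrix zebrafish arrays. The labels give the tissue as embryo and leave unsaid whether each array stands for its own clutch; the p-values therefore cover the spread among these arrays alone, and that spread may be technical.

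The respiratory chain passes electrons from metabolites to oxygen in the inner mitochondrial membrane. Complex I (NADH dehydrogenase) and complex II (succinate dehydrogenase) reduce ubiquinone, complex III passes the electrons on to cytochrome c, and complex IV (cytochrome c oxidase) hands them to oxygen. Complexes I, III and IV pump protons, and complex V, the ATP synthase, uses the gradient to make ATP. Dihydroorotate dehydrogenase, an enzyme of pyrimidine synthesis that the active form of leflunomide inhibits, sits in the same membrane and passes its electrons to ubiquinone, upstream of complex III. A few subunits of complexes I, III, IV and V are encoded in mitochondrial DNA; none of the 13 was represented by a probe set with such a symbol, so all values here are for nuclear genes.

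Each value is a log2 value centred on the median of the 6 arrays, so it has a difference between arrays and no absolute level. Differences are leflunomide minus DMSO, errors are standard errors (SE) of the limma fit with 3 arrays a group, and a probe set was called at a Benjamini-Hochberg adjusted p under 0.05 over all 12431 probe sets tested. Tested were probe sets with a log2 level of at least 4, recovered from the rounding of the values. Of the 93 members, 90 (85 genes) passed this filter and 78 had a level of at least 8. The 3 that did not pass, 1 of 2 probe sets of ndufb6, 1 of 2 of atp5l and that of sdhaf3, had differences of 0.36, 0.09 and -0.21 and were not tested. In whole embryos fewer cells of a type and less RNA per cell cannot be told apart.

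Most respiratory chain transcripts at the higher levels were measured within a narrow range of their DMSO values. Of the 90 tested members, 8 passed the test (8.89%), against 21.2% of all tested probe sets. Of these, 4 rose and 4 fell. The rising members were cox4i2, ndufa1, sdhaf4 and ndufa13, and the falling ones were cox6b1, cox4i1l and both probe sets of ndufaf1. Among brighter probe sets (level 8 or more) the calls numbered 4 of 78 members (5.13%), against 27.1% of all tested. The 12 members at a level of 4 to 8 went the other way, with 4 called (33.3%), against 18.5% of all tested probe sets there. At an unadjusted p under 0.05, limma gave 20 of 90 members, against 4459 of all 12431 tested probe sets.

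The median difference of the 90 members was 0.05, and that of all tested probe sets was 0.04. The median size of the difference, without its sign, was 0.159 in members and 0.221 in all tested probe sets. At levels from 8 upward it was 0.140 in members and 0.255 in all, and at levels of 4 to 8 it was 0.468 in the 12 members and 0.207 in all. A difference smaller than 0.25 was measured in 69 of 90 members (76.7%), against 54.3% of all tested probe sets; of the 12 dimmer members, most of them assembly factors, 3 had such a difference. The 95% interval of the difference lay wholly within 0.5 on either side of 0 for 64 members (71.1%), against 42.6% of all. Both bounds, 0.25 and 0.5, were chosen after the values were seen, and the shares carry no test. The groups did not overlap in 39 members (43.3%), 22 with leflunomide higher and 17 with leflunomide lower, which is close to the 41.4% of all tested probe sets.

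**Figure D1:**
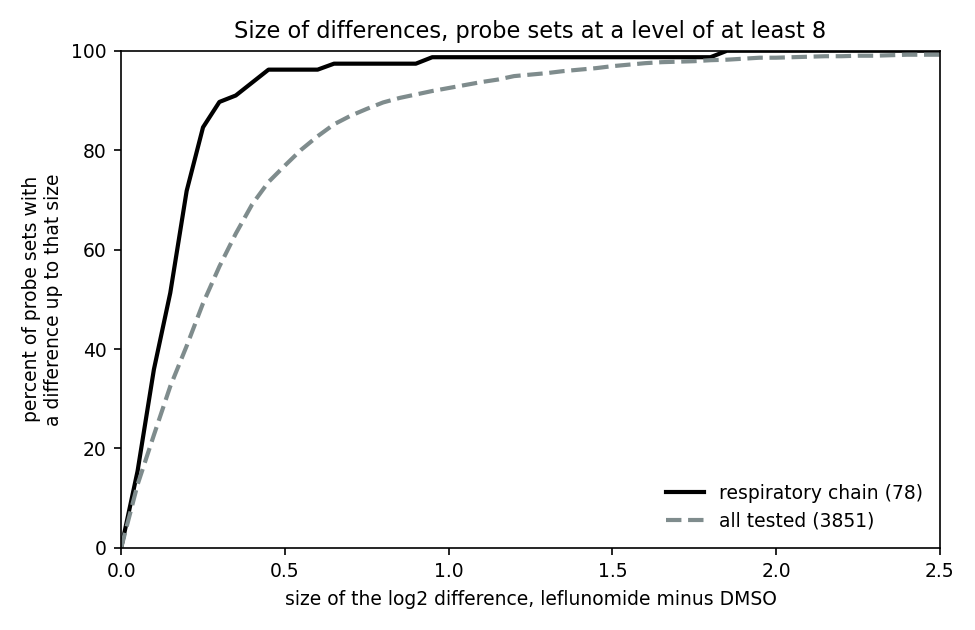
Cumulative percent of probe sets (vertical axis) whose log2 difference, leflunomide minus DMSO, is no larger than the size on the horizontal axis, for 78 respiratory chain members and all 3851 tested probe sets, both at levels from 8 upward. At a size of 0.25 the curve stands at 84.6% for members and 49.2% for all.

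By complex, the members called higher and lower were 2 and 2 of 43 tested in complex I, 1 and 0 of 6 in complex II, 0 and 0 of 9 in complex III, 1 and 2 of 14 in complex IV, and 0 and 0 of 18 in complex V. The 2 lower ones of complex I were both of ndufaf1. The shares called were 9.3% in complex I, 16.7% in complex II and 21.4% in complex IV. Of all tested probe sets 21.2% were called, close to the share in complex IV. That share mixes levels: of the called members there, cox6b1 has a level of at least 8, and cox4i1l and cox4i2 have levels of 4 to 8. Among all tested probe sets, 27.1% were called at the higher levels and 18.5% at the lower. In complexes III and V, where limma called 0 members, 1 and 4 members had an unadjusted p under 0.05. The median differences were 0.01 in complex I, 0.05 in complex II, 0.06 in complex III, 0.09 in complex IV and 0.03 in complex V. With any 1 array left out the medians of the complexes lay between -0.04 and 0.14; that of complex IV was 0.14 without leflunomide 1 and 0.03 without leflunomide 3. On single leflunomide arrays the medians of the complexes ran from -0.09 (complex II, leflunomide 3) to 0.16 (complex IV, leflunomide 3).

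**Figure D2:**
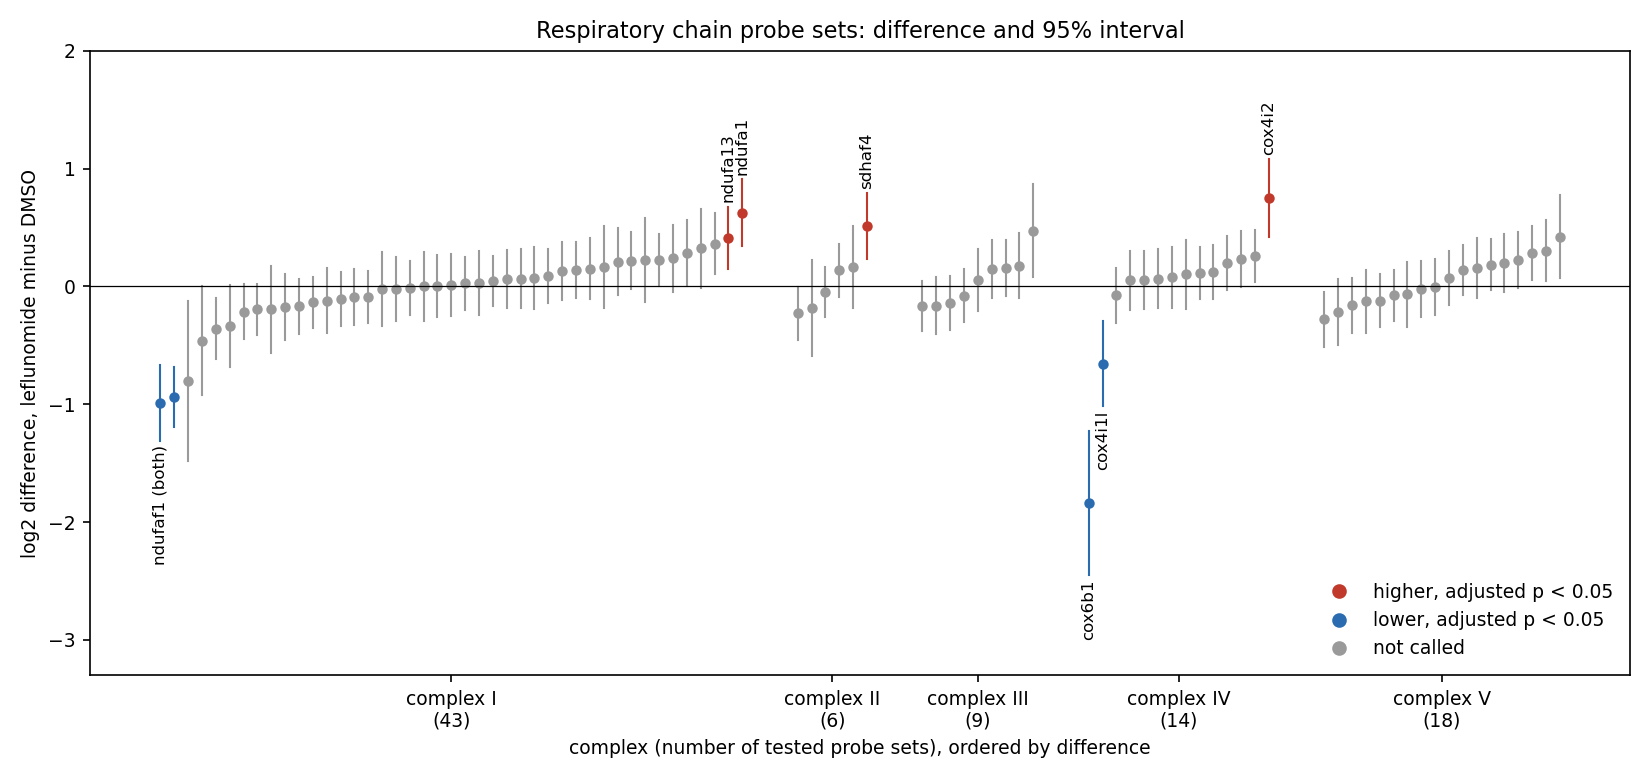
Log2 difference, leflunomide minus DMSO (vertical axis), of each tested respiratory chain probe set, ordered within complexes I to V (horizontal axis), with its 95% interval as a line. Called members are coloured and named; cox6b1, at -1.84, lies furthest from 0, and most other points lie within 0.25 of it.

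Complex I takes electrons from NADH in a peripheral arm that stands in the matrix and pumps protons in a membrane arm. The core subunits of the peripheral arm carry the flavin and the iron-sulfur clusters. None of their 6 probe sets was called, against 21.2% of all tested, and their median difference was -0.01. The clearest difference among them was that of ndufs1, which holds several of the clusters. Its centred log2 values were -0.17, -0.07 and -0.31 on leflunomide arrays 1 to 3, against 0.07, 0.27 and 0.18 on DMSO arrays 1 to 3. All leflunomide values lay below all DMSO values. The difference of -0.36 (SE 0.11) missed the threshold at a limma adjusted p of 0.0563 and passed it when arrays were rescaled to equal medians (-0.38, adjusted p = 0.0482), quantiles or 75th percentiles.

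The other core subunits lay closer to their DMSO values. ndufv1, which binds NADH and the flavin, had 0.01, 0.17 and -0.11 on the leflunomide arrays, against -0.04, -0.01 and 0.17 on the DMSO arrays, a difference of -0.02 (95% interval -0.29 to 0.25). ndufs7, next to the site where ubiquinone binds, had a difference of 0.05 (95% interval -0.17 to 0.26). The groups of ndufv1 overlapped. Both probe sets of ndufv2, with differences of 0.00 and 0.01, and ndufs8a, with -0.19, completed the core.

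Accessory subunits surround the core and are needed for its assembly and stability. Among those of the membrane arm, 2 of 17 tested probe sets rose and none fell (11.8% called, against 21.2% of all tested). Of all 12431 tested probe sets, 1247 rose, so the share that rose in the membrane arm was near that of all. The median was 0.07, close to the 0.06 of all tested probe sets at levels from 8 upward. ndufa1, a small subunit that mammalian cells need for assembly of the complex, had 0.17, 0.50 and 0.47 on the leflunomide arrays, against -0.21, -0.17 and -0.35 on the DMSO arrays. The groups did not overlap, and the lowest leflunomide value was that of array 1. ndufa1 rose by 0.63 (SE 0.12, 1.54-fold, limma adjusted p = 0.0132), a call lost without DMSO 3 (adjusted p = 0.0564).

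The second rising subunit of the membrane arm was ndufa13, whose human protein is also known as GRIM-19. Its values were 0.08, 0.28 and 0.33 on the leflunomide arrays, against -0.29, -0.19 and -0.08 on the DMSO arrays. The groups stood apart by a small margin, between leflunomide 1 and DMSO 3. ndufa13 rose by 0.41 (SE 0.11, 1.33-fold, limma adjusted p = 0.0409). The call was lost without any 1 of leflunomide 2, leflunomide 3, DMSO 1, DMSO 2 or DMSO 3 (adjusted p from 0.0697 to 0.141) and with 75th percentiles aligned (0.0501).

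Among accessory subunits of the peripheral arm, none of 11 tested probe sets was called, against 21.2% of all tested. Their median was 0.07, close to the 0.06 of all tested probe sets at levels from 8 upward. ndufab1a and ndufab1b encode the mitochondrial acyl carrier protein, which serves both complex I and fatty acid synthesis in mitochondria. The 3 probe sets of ndufab1a had differences of 0.36 (SE 0.11), 0.24 (SE 0.12) and 0.22 (SE 0.11), and the single probe set of ndufab1b had 0.06 (SE 0.11). At the first of these the values were 0.06, 0.29 and 0.22 on the leflunomide arrays, against -0.06, -0.18 and -0.28 on the DMSO arrays. These groups did not overlap, and the limma adjusted p was 0.0544. The 3 probe sets of ndufab1a share most of an ID and may read the same transcripts, so they do not count as separate evidence.

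The factors that assemble complex I are no part of the finished enzyme, and the largest decreases of the complex were found among them. Both probe sets of ndufaf1, whose human protein helps to build the membrane arm, fell. At the first the values were -0.76, -0.32 and -0.54 on the leflunomide arrays, against 0.32, 0.58 and 0.46 on the DMSO arrays. At the second they were -0.61, -0.38 and -0.41 on the leflunomide arrays, against 0.48, 0.56 and 0.38 on the DMSO arrays. Every leflunomide array was below every DMSO array at both. ndufaf1 fell by 0.99 (SE 0.14, 1.99-fold lower, limma adjusted p = 0.0038) and by 0.94 (SE 0.11, 1.92-fold lower, adjusted p = 0.00205), and neither call was lost when any 1 array was left out. Both probe sets share most of an ID and may read the same transcripts, so they do not count as separate evidence. The remaining 5 assembly factor probe sets of complex I were not called and had differences from -0.46 (ndufaf5) to 0.32 (ndufaf2).

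The subunit once assigned to complex I as ndufa4 is now placed in complex IV, and zebrafish has a pair of genes for it. ndufa4b had -0.01, -0.69 and -1.27 on the leflunomide arrays, against 0.38, 0.04 and 0.01 on the DMSO arrays. Leflunomide 1 lay beside the lowest DMSO value, and leflunomide 3 lay far below it. The difference of -0.80 (SE 0.29, limma adjusted p = 0.0895) was not called, and it rested on the arrays kept: without leflunomide 1 it was -1.12 (adjusted p = 0.00966), and without leflunomide 3 it was -0.50. ndufa4a had 0.00, 0.32 and 0.21 on the leflunomide arrays, against -0.20, 0.00 and -0.13 on the DMSO arrays, a difference of 0.28 (SE 0.12, adjusted p = 0.136). The groups of ndufa4a overlapped.

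**Figure D3:**
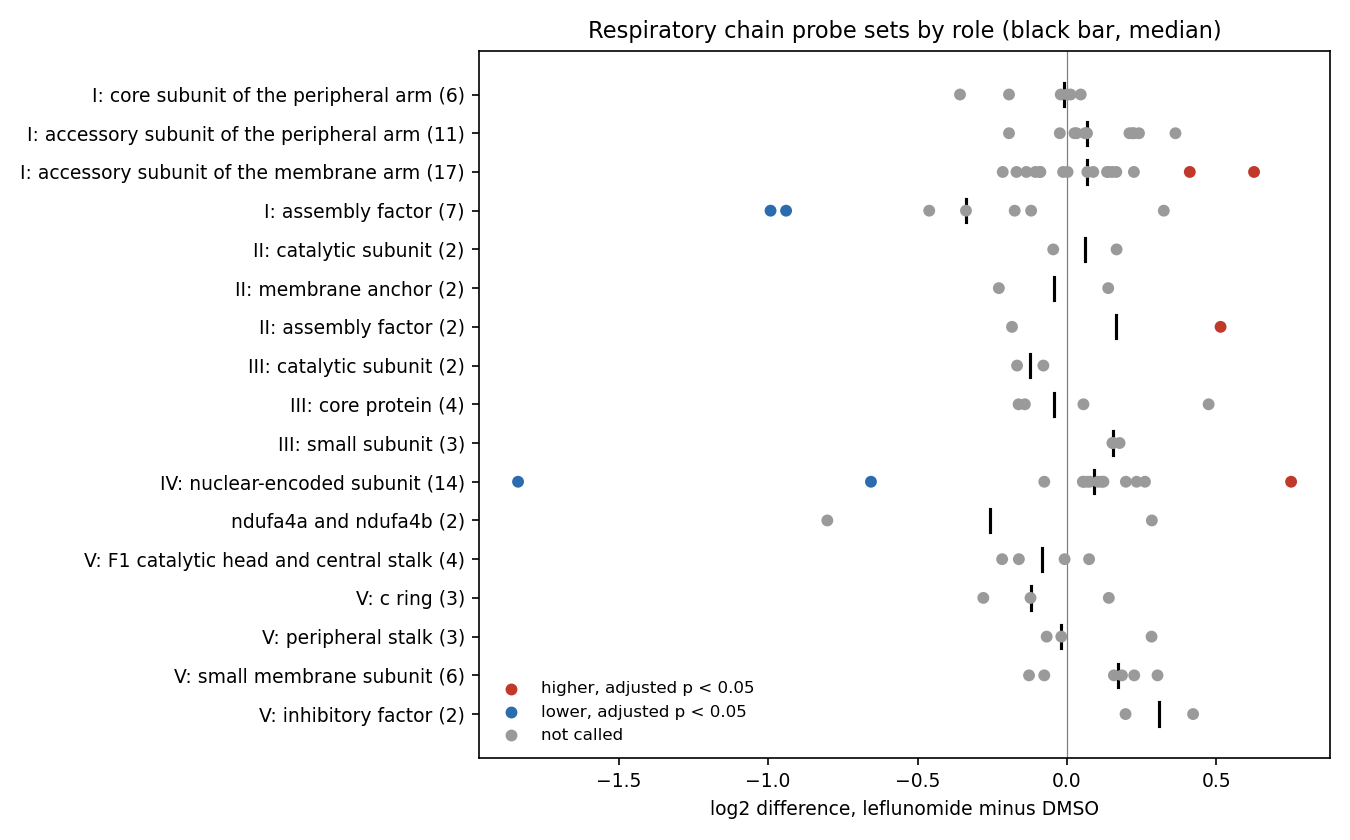
Log2 difference, leflunomide minus DMSO (horizontal axis), of the tested respiratory chain probe sets by complex and role (vertical axis, number of probe sets in brackets), with a black bar at the median of each role. Called members are coloured. Complex I assembly factors have the lowest median among roles with more than 2 probe sets, at -0.34, over 7 probe sets of 6 genes. Both probe sets of ndufaf1 count there.

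Complex II oxidises succinate in the tricarboxylic acid cycle and reduces ubiquinone, and all of its subunits are nuclear. None of its 4 subunits was called, against 21.2% of all tested probe sets. sdha, the flavin subunit, had -0.05, 0.02 and -0.08 on the leflunomide arrays, against 0.01, 0.03 and -0.01 on the DMSO arrays. The groups overlapped, and the difference was -0.05 (SE 0.09, 95% interval -0.26 to 0.17, limma adjusted p = 0.773). sdhb, the iron-sulfur subunit, had a difference of 0.17 (95% interval -0.18 to 0.51), which was 0.04 without leflunomide 1 and 0.30 without leflunomide 3. Its probe set ID shares its stem with probe sets of ctsla and a further gene, so the transcript it reads is uncertain.

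The membrane anchors of complex II, which bind ubiquinone, differed in sign. sdhc had 0.01, 0.05 and 0.11 on the leflunomide arrays, against -0.16, -0.08 and -0.01 on the DMSO arrays, a difference of 0.14 (SE 0.10, limma adjusted p = 0.356). sdhdb had -0.05, -0.16 and -0.18 on the leflunomide arrays, against 0.07, 0.05 and 0.17 on the DMSO arrays, a difference of -0.23 (SE 0.10, limma adjusted p = 0.138). In each of these genes the groups did not overlap, and neither was called.

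The single called member of complex II was an assembly factor. sdhaf4, which in yeast and human cells helps the flavin subunit to join the iron-sulfur subunit, had 0.13, 0.30 and 0.48 on the leflunomide arrays, against -0.13, -0.26 and -0.24 on the DMSO arrays. Every leflunomide array was above every DMSO array. sdhaf4 rose by 0.51 (SE 0.12, 1.43-fold, limma adjusted p = 0.0234), a call lost without any 1 of leflunomide 2, DMSO 1, DMSO 2 or DMSO 3 (adjusted p from 0.0602 to 0.0841). sdhaf2, which adds the flavin, had a difference of -0.18 (SE 0.18).

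Complex III takes electrons from ubiquinol, the pool that dihydroorotate dehydrogenase supplies. The catalytic subunits encoded in the nucleus are cyc1, which is cytochrome c1, and uqcrfs1, the Rieske iron-sulfur protein. cyc1 had -0.08, -0.04 and -0.08 on the leflunomide arrays, against 0.04, 0.11 and 0.13 on the DMSO arrays, and the groups did not overlap. Its difference was -0.17 (SE 0.09, 95% interval -0.38 to 0.05, limma adjusted p = 0.237), and that of uqcrfs1 was -0.08 (SE 0.10).

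The core proteins of complex III face the matrix. uqcrc1 and uqcrc2b had differences of -0.16 (SE 0.10) and -0.14 (SE 0.10), neither called, with the leflunomide arrays below the DMSO arrays in both. The 2 probe sets of uqcrc2a disagreed in size. At the brighter the difference was 0.06 (SE 0.11). At the dimmer, with a level between 4 and 8, the values were 0.24, 0.62 and 0.02 on the leflunomide arrays, against -0.25, -0.02 and -0.28 on the DMSO arrays, a difference of 0.47 (SE 0.17, limma adjusted p = 0.084). Leflunomide 3 lay just above the highest DMSO array there, and without it the difference was 0.61 (adjusted p = 0.0389), whereas without leflunomide 2 it was 0.31. The small subunits uqcrb, uqcrh and uqcrq had nearly equal differences of 0.16, 0.15 and 0.18, none called.

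Complex IV held the largest difference of the chain and the only pair of isoforms called in opposite directions. cox6b1 encodes a subunit on the outer face that bridges the monomers of the dimer in mammals. Its values were -0.48, -1.39 and -1.32 on the leflunomide arrays, against 0.48, 0.73 and 1.101 on the DMSO arrays. The groups lay far apart, and leflunomide 1 was the closest to DMSO. cox6b1 fell by 1.84 (SE 0.26, 3.57-fold lower, limma adjusted p = 0.00424), and the call held without any 1 array, with differences from -2.13 to -1.67. The related cox6b2 had 0.08, 0.18 and 0.22 on the leflunomide arrays, against -0.12, -0.09 and -0.08 on the DMSO arrays, a difference of 0.26 (SE 0.09, adjusted p = 0.0891). Its probe set shares most of its ID with a probe set annotated to several egg envelope genes, so the transcript it reads is uncertain.

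Subunit 4 is a regulatory subunit of complex IV that binds adenine nucleotides in mammals and exists in isoforms. cox4i1l had -0.33, -0.34 and -0.20 on the leflunomide arrays, against 0.21, 0.20 and 0.71 on the DMSO arrays. DMSO 3 stood above the other DMSO arrays, and no leflunomide array reached a DMSO value. cox4i1l fell by 0.66 (SE 0.16, 1.58-fold lower, limma adjusted p = 0.0241), a call lost without leflunomide 2 (-0.63, adjusted p = 0.0691). cox4i2, whose mammalian counterpart is induced by low oxygen, had 0.35, 0.19 and 0.53 on the leflunomide arrays, against -0.19, -0.59 and -0.40 on the DMSO arrays. The order was the reverse of that of cox4i1l, again with no overlap. cox4i2 rose by 0.75 (SE 0.14, 1.68-fold, adjusted p = 0.0112), with calls in each of the 6 fits on 5 arrays and differences from 0.65 to 0.85.

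**Figure D4:**
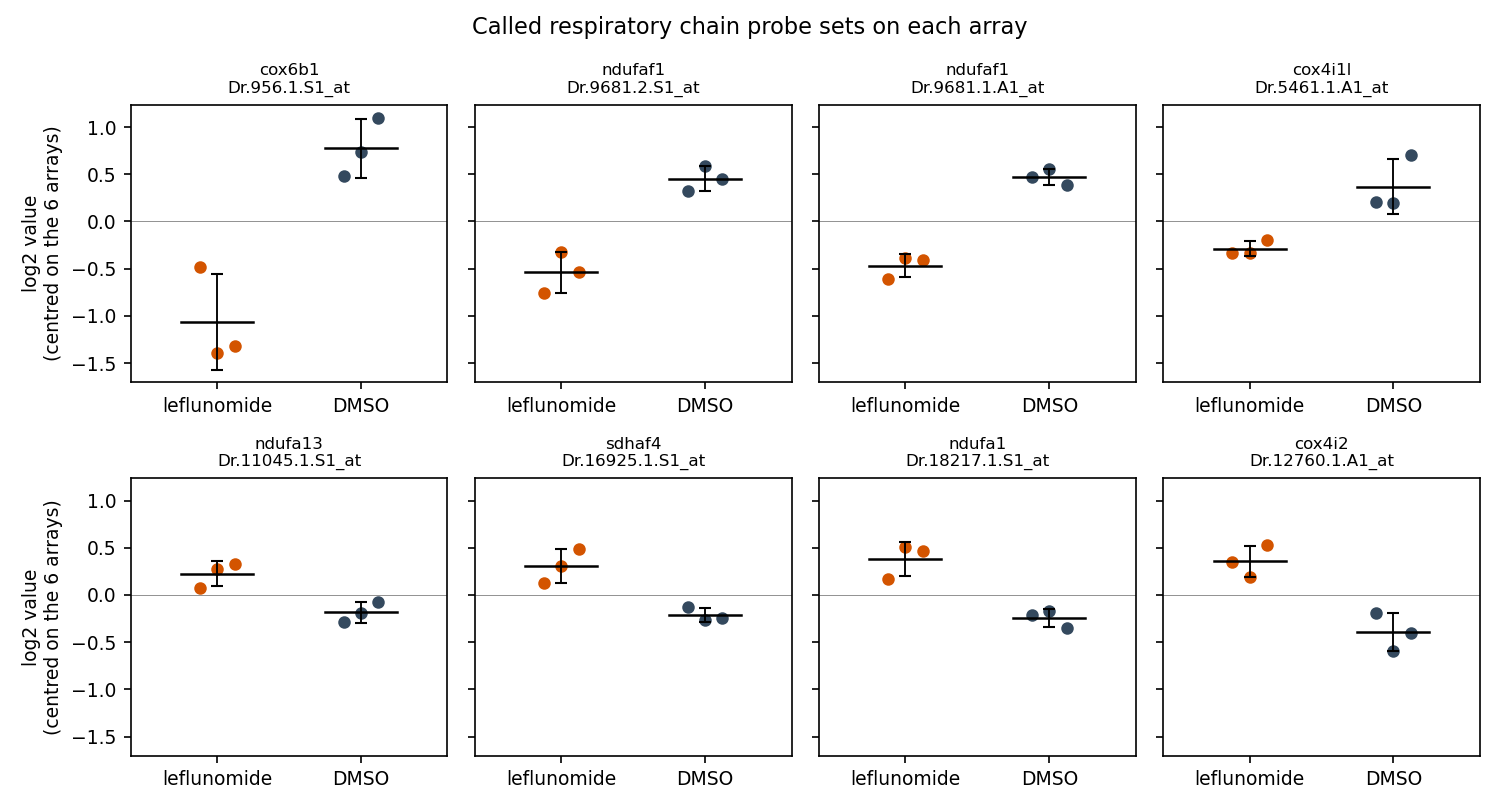
Centred log2 value (vertical axis) on each array of the leflunomide and DMSO groups for the 8 called respiratory chain probe sets, with the mean as a horizontal line and the SD as an error bar (n = 3 each). In all 8 panels the leflunomide points stand wholly above or wholly below the DMSO points, and the widest gap is that of cox6b1. The panels were chosen by the test on these same values. Of all tested probe sets, 41.4% had groups that did not overlap.

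Beside these 4 genes, the other 10 subunits of complex IV had differences between -0.08 and 0.23, and none was called. cox5aa and cox5ab, isoforms of a subunit on the matrix side, had differences of 0.12 (SE 0.09) and 0.23 (SE 0.10). In cox5ab the values were 0.05, 0.16 and 0.13 on the leflunomide arrays, against -0.24, -0.05 and -0.06 on the DMSO arrays, without overlap. cox6a1 had 0.06 (SE 0.11), cox7a2a had -0.08 (SE 0.10), cox7a2l, known in mammals for joining complexes III and IV, had 0.08 (SE 0.11) and cox8a had 0.12 (SE 0.10). The ID of the cox7a2a probe set, too, shares its stem with probe sets of other genes.

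Complex V is made of the F1 head, which makes ATP, a ring of c subunits in the membrane that turns with proton flow, a peripheral stalk and small membrane subunits. None of its 18 tested members was called, against 21.2% of all tested probe sets. atp5f1b, the catalytic beta subunit, had 0.01, -0.15 and -0.34 on the leflunomide arrays, against 0.15, -0.01 and 0.03 on the DMSO arrays, a difference of -0.22 (SE 0.12, 95% interval -0.50 to 0.06, limma adjusted p = 0.242). The groups overlapped at leflunomide 1. atp5f1c, the rotating gamma subunit, had a difference of -0.16 (SE 0.10).

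The c ring is encoded by several genes with nearly the same mature protein. atp5mc3a had -0.20, -0.06 and -0.17 on the leflunomide arrays, against 0.14, 0.21 and 0.06 on the DMSO arrays. The groups did not overlap, and the difference of -0.28 (SE 0.10, limma adjusted p = 0.0834) was the lowest of the complex. The IDs of the atp5mc3a and atp5f1b probe sets share a stem, so their transcripts are uncertain. atp5mc3b had a difference of -0.12 (SE 0.10) and atp5mc1 had 0.14 (SE 0.09).

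The highest difference of complex V belonged to atp5if1a, an inhibitory factor that in mammals stops the enzyme from running backwards. Its values were 0.03, 0.37 and 0.42 on the leflunomide arrays, against -0.38, -0.03 and -0.04 on the DMSO arrays. The groups stood apart narrowly, at leflunomide 1. The difference of 0.42 (SE 0.15, limma adjusted p = 0.0859) was not called; without leflunomide 1 it was 0.54 (adjusted p = 0.0365), and without DMSO 1 it was 0.31. The related atp5if1b had 0.20 (SE 0.11). The 6 tested small membrane subunits had differences from -0.13 to 0.30 with a median of 0.17, and the 3 of the peripheral stalk from -0.07 to 0.28.

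Grouped by role across complexes, the catalytic and core subunits and the accessory and small subunits had medians of opposite sign, though both were small. In a grouping made after the values were seen, and so without a test, the 18 core and catalytic probe sets of complexes I, II, III and V had a median of -0.03, with 7 above 0 and 11 below. The 37 tested accessory and small probe sets of complexes I, III and V had a median of 0.13, with 26 above 0 and 11 below. Of all 3851 tested probe sets at levels from 8 upward, 2225 were above 0, and their median was 0.06. The 18 and 37 probe sets stand for 16 and 35 genes, so some genes count more than once. Of the subunits, the grouping left out complex IV, ndufa4a and ndufa4b, the complex II membrane anchors, and the c ring and peripheral stalk. On leflunomide arrays 1, 2 and 3 the core and catalytic medians were -0.06, -0.03 and -0.12. The accessory and small medians were 0.03, 0.09 and 0.19 on the same arrays, so the gap was widest on leflunomide 3. Without that array the medians were -0.04 and 0.08.

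Leflunomide 3 also differed in the controls for RNA labelling. In the 4 bacterial poly-A spike-in controls the 3' probe set minus the 5' probe set ran from 0.44 to 1.75 on leflunomide 3, from -0.47 to 0.00 on leflunomide 1 and 2, and from -0.58 to 0.22 on the DMSO arrays. The second probe sets of 3 of these controls ran from 0.54 to 2.00, from -0.71 to 0.15 and from -0.43 to 0.18 on the same arrays. In the control pairs for zebrafish transcripts, that of acta1 had 0.48, 0.64 and 0.63 on the leflunomide arrays, against -0.48, -0.62 and -0.87 on the DMSO arrays. That of gapdh had -0.11, -0.76 and -0.91 on the leflunomide arrays, against 0.18, 0.11 and -0.09 on the DMSO arrays. Both pairs parted the groups, in opposite directions and, for gapdh, narrowly. The acta1 control is annotated to actc1b, a skeletal muscle marker. Its 3' and 5' probe sets had differences between the groups of -1.39 and -2.62. The part of that decrease in its end difference was not tested. The part of these end differences in the gap between the core and catalytic group and the accessory and small group was not tested.

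Markers of single tissues fell on the same arrays. The level filter was passed by 33 of 39 skeletal muscle, 18 of 18 erythroid, 18 of 19 neuronal and 6 of 7 cardiac probe sets. Of 33 tested skeletal muscle probe sets 29 fell (87.9%, median -1.92). Of 18 erythroid ones 14 fell (77.8%, median -1.62), and of 18 neuronal ones 10 fell (55.6%, median -0.88). Of all tested probe sets, 11.1% fell. None rose in the muscle, erythroid and neuronal lists. Of 6 cardiac ones, limma called 0, and 0 had an unadjusted p under 0.05. On leflunomide arrays 1, 2 and 3 the muscle medians were -1.53, -1.99 and -2.28, and the respiratory chain medians were -0.02, 0.03 and 0.10. The cardiac medians were 0.15, -0.88 and -1.47. Relative to the DMSO mean, cox6b1 had -1.26, -2.16 and -2.09 on the same arrays. Leflunomide 1 was the leflunomide array nearest to the DMSO mean in 4 of the 8 called members, the falling cox6b1 and the rising ndufa1, ndufa13 and sdhaf4, and in 65.4% of all called probe sets. The part of the muscle, blood and neuronal decreases in these results was not tested.

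**Figure D5:**
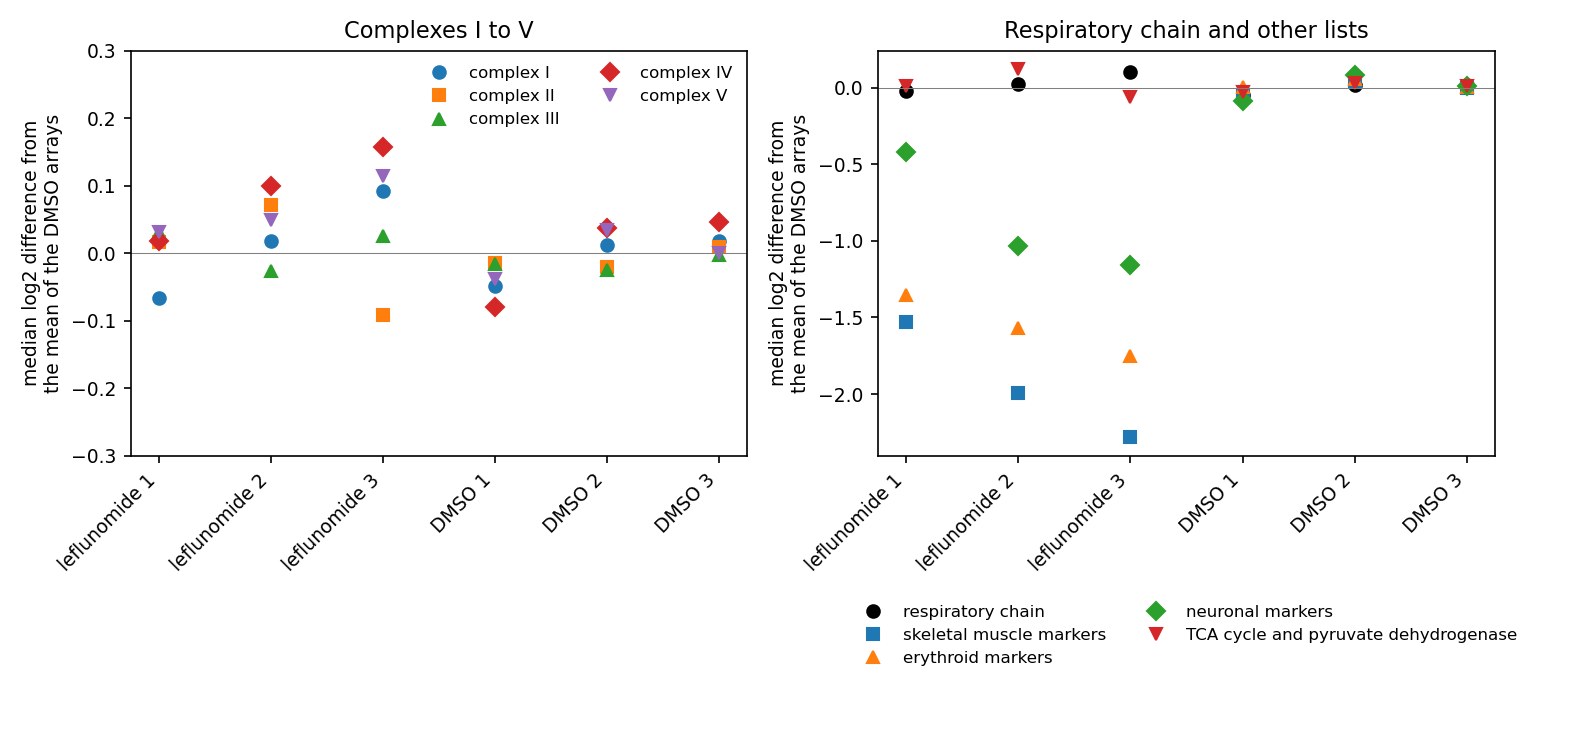
Median log2 difference from the mean of the DMSO arrays (vertical axis) on each of the 6 arrays (horizontal axis), for complexes I to V on the left and for the whole respiratory chain and 4 other gene lists on the right. The medians of the complexes stay between -0.09 and 0.16, while the muscle markers reach -2.28 on leflunomide 3.

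Genes that serve the chain without matching its symbols were read from further gene lists. Of 24 tested probe sets of further assembly factors, 3 rose and 5 fell (33.3%, median 0.00), against 21.2% of all tested probe sets, of which 1247 rose and 1383 fell. cox17, a chaperone that brings copper to complex IV, had -0.47, -0.76 and -0.35 on the leflunomide arrays, against 0.41, 0.35 and 0.43 on the DMSO arrays. It fell by 0.92 (SE 0.13, limma adjusted p = 0.00361) with no overlap. The factors that in yeast and human cells bind the alpha and beta subunits of complex V before assembly were called in opposite directions: atpaf2 fell by 0.79 (SE 0.11, adjusted p = 0.00408) and atpaf1 rose by 0.71 (SE 0.12, adjusted p = 0.0084) at 1 of its 3 probe sets, with differences of 0.15 and 0.19, not called, at the others. surf1, needed for complex IV assembly in mammals, rose by 0.63 (SE 0.12, adjusted p = 0.0121) and was not called when DMSO 2 (0.051) or DMSO 3 (0.0533) was left out.

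Among 17 tested probe sets of enzymes that reduce ubiquinone or make it, 3 rose and none fell (17.6%, against 21.2% of all tested probe sets), with a median of 0.12. aifm2, which reduces ubiquinone outside mitochondria in mammals, had 0.33, 0.75 and 0.71 on the leflunomide arrays, against -0.56, -0.33 and -0.39 on the DMSO arrays. It rose by 1.02 (SE 0.14, limma adjusted p = 0.00374). dhodh, the gene of the drug's target, had 0.14, 0.42 and 0.32 on the leflunomide arrays, against -0.43, -0.14 and -0.28 on the DMSO arrays. The groups of both genes stood apart, those of dhodh by the narrower margin. The difference of dhodh was 0.58 (adjusted p = 0.0171), with an adjusted p of 0.0555 to 0.0689 without leflunomide 2, DMSO 1 or DMSO 3. coq10a, which binds ubiquinone, rose by 0.57 (SE 0.13, adjusted p = 0.0201) and was not called when DMSO 1 (0.0684) or DMSO 3 (0.071) was left out. etfdh, which passes electrons from fatty acid oxidation to ubiquinone, had a difference of 0.21 (adjusted p = 0.298).

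Cytochrome c and the carriers and pores of the mitochondrial membranes had 3 of 12 tested probe sets lower and none higher (21.2% of all tested were called). slc25a4, the ADP/ATP carrier that prevails in mammalian muscle and heart, had -1.29, -1.19 and -0.79 on the leflunomide arrays, against 1.17, 1.21 and 0.79 on the DMSO arrays. It fell by 2.15 (SE 0.17, limma adjusted p = 0.000626), a larger difference than that of any respiratory chain member. cycsb, a cytochrome c gene, had a difference of 0.02 (SE 0.10). vdac3, a pore of the outer membrane, fell by 0.62 (adjusted p = 0.0483) and chchd4a, part of an import pathway for small cysteine-rich proteins, by 0.33 (adjusted p = 0.0466). The call of vdac3 was lost without any 1 array other than leflunomide 1 (0.0721 to 0.154), and that of chchd4a without any 1 of the 6 arrays (0.0562 to 0.15).

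The tricarboxylic acid cycle and pyruvate dehydrogenase list had 2 higher and 4 lower of 27 tested probe sets (22.2%, against 21.2% of all tested) and a median of 0.03. mdh1ab, which encodes the cytosolic rather than the mitochondrial malate dehydrogenase, fell by 1.94 (SE 0.17, limma adjusted p = 0.000819). The decrease of mdh2 was smaller, at -0.40 (SE 0.11, limma adjusted p = 0.0424), and 5 fits that each left out 1 array did not call it. The probe sets of mdh1aa had differences of 0.125 (SE 0.10) and -0.048 (SE 0.12), neither called. dldh, a shared component of pyruvate and oxoglutarate dehydrogenase, fell by 0.65 (SE 0.12, adjusted p = 0.0106), and cs, citrate synthase, fell by 0.61 (SE 0.16, adjusted p = 0.0342). idh3g, a subunit of isocitrate dehydrogenase, rose by 0.67 (SE 0.17, adjusted p = 0.0325). The call of cs was lost without any 1 DMSO array (adjusted p from 0.0775 to 0.113), and that of idh3g without any 1 array other than leflunomide 1 (0.0594 to 0.0939).

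Of 16 tested probe sets of regulators of mitochondrial genes, 1 rose and 4 fell (31.2%, against 21.2% of all tested). nrf1, a transcription factor known in mammals for binding promoters of respiratory chain genes, had -0.25, -0.22 and -0.14 on the leflunomide arrays, against 0.36, 0.35 and 0.14 on the DMSO arrays, and fell by 0.49 (SE 0.11, limma adjusted p = 0.0183). myca and mycb, growth regulators with many targets, fell by 1.12 (SE 0.13, adjusted p = 0.00206) and 0.60 (SE 0.13, adjusted p = 0.0171). hif1an, an oxygen-dependent enzyme that restrains hypoxia-inducible factor, fell by 0.93 (SE 0.13, adjusted p = 0.00383). The call of nrf1 was lost without leflunomide 2, DMSO 1 or DMSO 2 (adjusted p from 0.0557 to 0.0768), and that of mycb without leflunomide 2 or any 1 DMSO array (0.0535 to 0.0661). In the list of superoxide and peroxide enzymes, limma called 3 of 15 tested probe sets, a slightly lower share than the 21.2% of all tested. Of these, 2 rose, gpx1b by 0.99 (SE 0.24, adjusted p = 0.0259) and gpx4a by 0.50 (SE 0.14, adjusted p = 0.0402), both glutathione peroxidases. ucp3, a carrier of the inner membrane and no enzyme, fell by 0.78 (SE 0.10, adjusted p = 0.00266). The call of gpx1b was lost without leflunomide 2 or any 1 DMSO array (adjusted p from 0.056 to 0.0949), and that of gpx4a without any 1 array other than leflunomide 1 (0.0686 to 0.136).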

How the data were processed

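The 6 arrays were grouped and numbered by their titles. The deposited values are log2 values; per the submitters' processing notes the authors made them with GCRMA, of a version not given in the sources used here. GCRMA corrects background by probe sequence and normalizes arrays by quantiles. No source states the log base, and 2, that of GCRMA's output, was assumed. Every probe set has a median of 0 over the arrays within 5e-07, a centring that no source used here states and that removes absolute levels. The step of the rounding of the values shows in which band a probe set's median level lies (3071 probe sets at 2 to 4, 8580 at 4 to 8, 3851 at 8 to 16), and 100.0% of the values read fitted such a step; values under 0.001 in size, and arrays more than 0.25 below the median, were not read.

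From these values, with 115 array controls and levels under 4 left out, 12431 probe sets entered a limma fit (version 3.58.1, lmFit and eBayes, R 4.3.3), two-sided, with Benjamini-Hochberg adjustment over all of them. An exact permutation test of 3 against 3 arrays cannot go below 0.10, so none was run. The fit was tested on simulated data. The precision is limited by the number of arrays.

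The platform annotation names 1 gene for 10795 of 15502 probe sets, several for 135 and none for 4572; all 86 member genes were found in RefSeq by identifier. For 9 members, none called, the probe set ID shares its stem with a probe set of another gene. Members and gene lists were chosen with earlier results of these data known. Named are, per complex, called members and the highest and lowest difference, subunits fixed by role, and up to 4 called genes per other list. mdh2 and mdh1aa were added beside mdh1ab. Tissue markers are given by counts and medians. From the lists, 1 symbol that names another gene in zebrafish and 2 genes that are members were removed. Alternatives covered the filter, scaling, variance model, array weights, a replicate block, 1 value per gene and each array left out.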

Additional observations from a re-analysis of the deposited data

How the results depend on the processing

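Of the 8 called members, ndufa13 alone had a difference under 0.5 on the log2 scale, and the labels used here give no batch or date. In all 15 alternatives fitted, the percent called was lower among respiratory chain members (5.56 to 12.2) than among all tested probe sets (9.40 to 34.7). cox6b1, cox4i2 and both probe sets of ndufaf1 kept their calls in each alternative in which they were tested; the 4 other called members lost theirs in 1 or more. Of 82 members not called, 10 passed the threshold under 1 or more alternatives, and no called member reversed. With 1 array left out, members called higher numbered 1 to 6 (4 with all arrays, 1 without DMSO 3, 2 without leflunomide 2, DMSO 1 or DMSO 2) and members called lower 3 to 5. Over all probe sets, 436 to 1381 were higher and 731 to 1461 lower, and the medians ran from -0.035 to 0.056 in complex I, from 0.00 to 0.06 in complex II, from -0.023 to 0.086 in complex III, from 0.025 to 0.135 in complex IV and from 0.003 to 0.055 in complex V. Fewer arrays leave fewer degrees of freedom. In an alternative added after seeing the data, without assembly and inhibitory factors, 2 members were lower and the median of complex V was -0.013. With no filter on level, the medians of complexes II and V were -0.046 and 0.074. With a level of at least 8, 726 of all probe sets were higher and 609 lower, since fewer were tested.

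With the replicate number as a replicate block, 6 members were higher and 5 lower. Same-numbered arrays of the groups had correlations of 0.33, 0.19 and 0.07 in their deviations from the group means. Each array correlated best with its own number, but for leflunomide 3 only narrowly (0.07 with DMSO 3, 0.05 with DMSO 2). That is a hint from the data and not from the design, and the numbers were not treated as pairs.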
